A study of Mus musculus with 8 samples.

Results

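App, the gene of the amyloid precursor protein, was followed together with the genes of the enzymes that cut this protein, in microglia sorted from the brains of an Alzheimer's disease mouse model. The members were 9 mouse genes taken by name from the 56832 rows of the authors' table, namely the precursor gene App, the beta-secretase genes Bace1 and Bace2, the alpha-secretase genes Adam10 and Adam17, and the gamma-secretase genes Psen2, Ncstn, Aph1a and Psenen. All 9 had a row. The test took in the 14428 genes whose normalized counts averaged 10 or more over the 8 libraries, among them 8 members, and Bace2 did not enter it.

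The microglia came from young adult male 5xFAD mice, and RNA-seq libraries were made from 4 saline and 4 ethanol samples, called saline 1 to 4 and ethanol 1 to 4 after the sample numbers in their titles. Both groups carried the 5xFAD transgenes, which encode mutant human proteins of familial Alzheimer's disease, the amyloid precursor among them, under the neuronal Thy1 promoter, so no sample without transgenes was compared. The ethanol group had intraperitoneal injections of 3 g/kg ethanol as a 20% solution on 5 days a week for 4 weeks, the saline group had saline on the same schedule, and both then had 2 weeks of withdrawal. The labels do not say that each sample was a separate mouse, so p-values measure the spread between these samples, which may be technical.

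The amyloid precursor protein spans the membrane and is cut by 2 routes. Alpha-secretases cut inside the amyloid-beta stretch and prevent its release, whereas beta-secretase followed by gamma-secretase frees amyloid-beta peptides. Gamma-secretase is a membrane complex of a presenilin as the catalytic subunit with nicastrin, an Aph1 subunit and presenilin enhancer. In brain the precursor and Bace1 are best known from neurons, and in microglia these proteases also cut receptors and cytokines such as Trem2 and tumour necrosis factor.

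No member differed between ethanol and saline microglia past the test's threshold. App averaged 2031 ± 134 normalized counts over the saline and 1970.2 ± 140.2 over the ethanol libraries (SD, n = 4 each), and the fitted folds of the detected secretase genes other than Psen2 lay between 0.924 and 1.07. Psen2 had the estimate farthest from equal, with means of 324 ± 36.7 and 276 ± 80.6, but its ethanol libraries spread from 189 to 354, over most of the saline range of 284 to 373. Limma called 0 of the 8 tested members at a Benjamini-Hochberg adjusted p under 0.05, against 0% of all genes tested. At an unadjusted p under 0.05 it marked 0 of 8 members, against 3.63% of all genes (524 genes), and edgeR, DESeq2 and voom on the recovered reads marked 0 members too, with 495, 558 and 546 genes. In 0 of 8 members were the groups free of overlap, against 2.32% of all genes.

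Libraries were also checked for a profile other than microglia. The 10 microglial markers, P2ry12 and Tmem119 among them, made up 4.46% to 4.77% of normalized counts in saline and 4.66% to 4.92% in ethanol libraries. The 12 neuronal markers, which include Thy1, made up 0.00114% to 0.00285% in saline and 0.00156% to 0.00235% in ethanol libraries, with none of the 12 at 0 in every library and 7 of 12 at a mean of at least 10. Thy1 itself had 0 to 21.4 normalized counts per library. Astrocyte markers (8 of 8 at a mean of at least 10) ranged from 0.0410% to 0.0593% over the 8 libraries. Slc1a3 held most of that sum, at means of 6011 in saline and 6222 in ethanol, where Gfap had 48.4 and 40.3. Oligodendrocyte lineage markers (5 of 10) ranged from 0.0185% to 0.0213%. Endothelial and mural markers (3 of 9, with Ly6c1, Rgs5 and Vtn at 0) ranged from 0.00286% to 0.00343%. Pecam1 held most of that sum, at means of 431 in saline and 467 in ethanol, where Cldn5 had 0.255 and 0. Markers of neutrophils ranged from 0.00954% to 0.0503%, of border macrophages from 0.00316% to 0.0148% and of monocytes from 0.000911% to 0.00286%. Lymphocyte markers (1 of 6 at a mean of at least 10, with Cd3e, Cd3d and Ms4a1 at 0) ranged from 0.00371% to 0.00662%. Cd79b held most of that sum, at means of 814 in saline and 829 in ethanol libraries. In each of these lists the ranges of the groups overlapped. The part of these other cells in the members' values was not tested, and in sorted bulk RNA fewer cells of a type and less RNA per cell cannot be told apart. The table has no row of its own for the human transgenes, and whether their reads were counted at mouse App was not tested. Library totals ran from 14271351 to 17231301 assigned reads. On the first principal component, which held 20.1% of the variance, samples 1 and 2 of both groups lay on one side and samples 3 and 4 on the other, with ethanol 4 farthest out, and on the second (16.9%) saline 4 lay farthest out.

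The upstream sequences of the precursor, of the secretase gene with the most reads and of the member that varied most between libraries are shown, so that the genes described here can be seen at the sequence level. They are the 250 bases before the RefSeq start on build GRCm38.p6, an older build than the GRCm39 of the table, written on the strand of the gene, with capitals at each GGGCGG or its reverse complement CCGCCC, the letters of a GC box that binds Sp1-type factors.
App, chr16:85173708-85173957, strand -: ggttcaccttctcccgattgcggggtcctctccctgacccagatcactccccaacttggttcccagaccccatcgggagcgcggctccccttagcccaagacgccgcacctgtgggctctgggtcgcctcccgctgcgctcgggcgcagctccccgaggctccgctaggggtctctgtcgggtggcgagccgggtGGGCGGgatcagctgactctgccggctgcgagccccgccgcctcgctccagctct
Adam10, chr9:70678732-70678981, strand +: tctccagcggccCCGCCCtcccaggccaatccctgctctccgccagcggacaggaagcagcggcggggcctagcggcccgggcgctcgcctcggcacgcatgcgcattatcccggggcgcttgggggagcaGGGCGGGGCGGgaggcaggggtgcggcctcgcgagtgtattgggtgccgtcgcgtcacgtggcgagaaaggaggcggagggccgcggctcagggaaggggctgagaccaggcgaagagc
Psen2, chr1:180256301-180256550, strand -: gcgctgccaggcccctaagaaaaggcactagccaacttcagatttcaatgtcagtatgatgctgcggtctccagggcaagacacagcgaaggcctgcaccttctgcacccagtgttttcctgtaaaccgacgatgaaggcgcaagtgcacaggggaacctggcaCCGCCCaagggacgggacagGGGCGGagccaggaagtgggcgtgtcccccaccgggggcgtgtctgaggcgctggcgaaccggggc
App held 1 such box, Adam10 held 3 and Psen2 held 2 before the start shown. RefSeq windows were at hand for 7 of the 9 members (9 windows, since Psen2 and Psenen have 2 starts each), and 5 of the 9 windows held a GC box, against 32.7% of 32851 windows of the same length. The GC content was 70.8% for App, 74% for Adam10 and 62.8% for the Psen2 window shown. The median of all windows was 52.4%, and 8 of the 9 windows lay above that median. The exception was the window of the other Psen2 start, with a GC content of 44.8% and 0 GC boxes. TATAAA or its reverse complement was found in 0 of the 9 windows, against 12.4% of all. These matches describe letters only.

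App transcripts were present in every library at a level that varied little. It had 1912 normalized counts in saline 1, 2214 in saline 2, 2045 in saline 3 and 1954 in saline 4, against 1900.0 in ethanol 1, 1818 in ethanol 2, 2136 in ethanol 3 and 2027 in ethanol 4. Saline 2 was the highest and ethanol 2 the lowest library, and the groups overlapped over most of their range. The fold of ethanol over saline was 0.970 on the log2(value + 1) scale, with a 95% interval of 0.856 to 1.10 (limma adjusted p = 0.997). The coefficient of variation over the 8 libraries was 6.55%, below the median of 8.95% among 1672 genes within 1.5-fold of its mean.

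**Figure D1:**
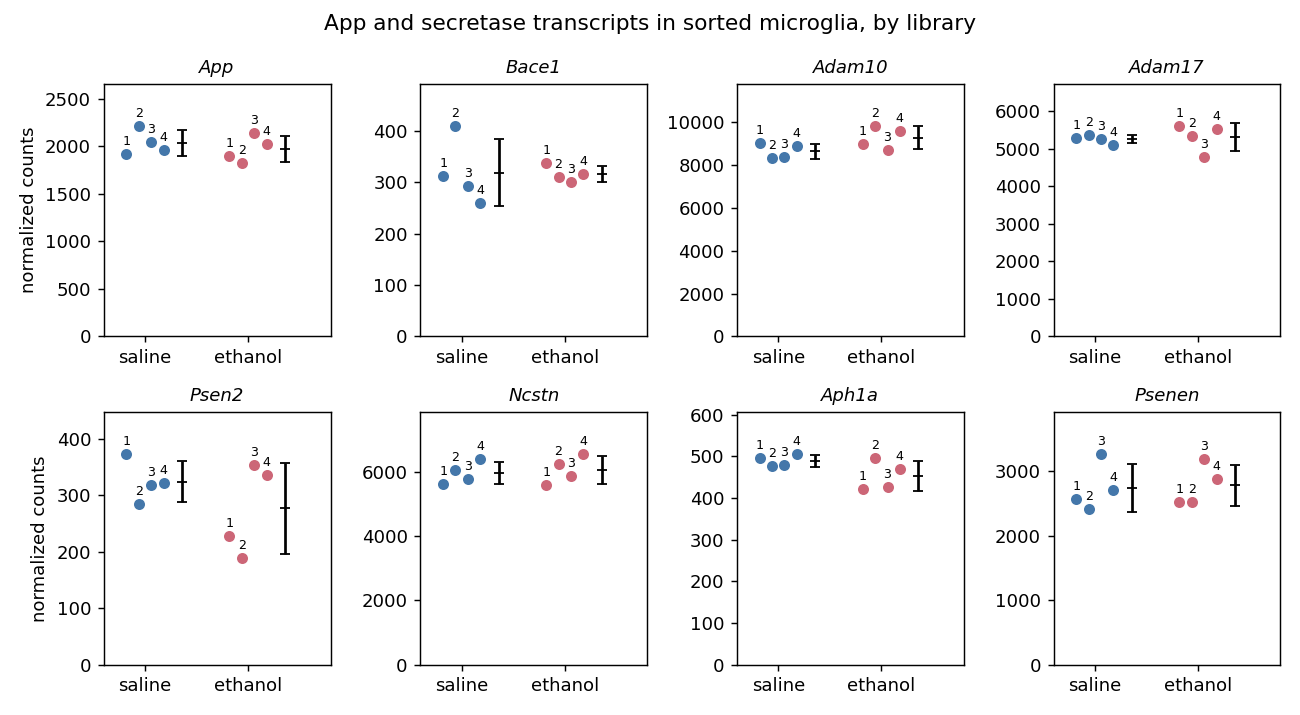
Normalized counts (y axis, from 0) of the 8 detected members in each saline and ethanol library; points carry the sample number, and the black bar beside each group gives the mean and SD (n = 4). The groups overlap in all 8 panels, and Psen2 has its 2 lowest values, 189 and 227, in ethanol 2 and ethanol 1.

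Bace1, the beta-secretase that starts amyloid-beta release, had 285 to 425 reads per library, and its close relative Bace2 had none. The mean of Bace1 was above that of 49.5% of the genes tested. Bace1 had 312 normalized counts in saline 1, 410.1 in saline 2, 294 in saline 3 and 259 in saline 4, and 338, 309.8, 301 and 316 in ethanol 1 to 4. The 4 ethanol libraries lay inside the saline range, and saline 2 was 1.58 times saline 4, the lowest library. The fold was 1.01 (95% interval 0.795 to 1.27, limma adjusted p = 0.997), and the coefficient of variation was 20.4% in saline and 4.99% in ethanol libraries. The sign of the Bace1 difference turned under 5 of the other settings and when saline 3, saline 4 or ethanol 1 was left out, so its direction was not stable. In the GENCODE M21 annotation 15.4% of the exonic bases of Bace1 are shared with Rnf214 on the opposite strand, and libraries of this kind do not mark strand. Other members had such overlaps too. The largest with 1 gene was 12.9% for Aph1a, 9.33% for Psenen, 4.91% for Ncstn, 4.35% for Adam17 and 0.869% for App.

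Bace2, a protease that cuts the precursor mainly at another site, had 0 reads in each of the 8 libraries. A count of 0 allows up to 3 reads, which is 2.73 to 3.26 normalized counts in the different libraries. Against that bound per library, Bace1 had at least 95-fold more reads, and at least 119.9-fold more per kilobase of transcript, in the library where the ratio was smallest. These bounds cover counting error only.

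Adam10, the main alpha-secretase of the precursor and a sheddase of Notch and Trem2, was the member with the most reads. It had 9009.9 normalized counts in saline 1, 8343 in saline 2, 8357 in saline 3 and 8894 in saline 4, and 8990.4, 9831, 8698 and 9594 in ethanol 1 to 4. Ethanol 2 and ethanol 4 lay above every saline library, while ethanol 1 and ethanol 3 lay within the saline range. An ethanol library was above a saline library in 13 of the 16 pairs. The fold was 1.07 with a 95% interval of 0.978 to 1.18 (limma unadjusted p = 0.130, adjusted p = 0.997), and 10.6% of all genes had a smaller p. The log2 difference was positive under all 25 settings run, the 8 that leave out 1 library included, and its lowest unadjusted p among them was 0.0524.

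Adam17, the enzyme that releases tumour necrosis factor and a second alpha-secretase, had values that were almost equal in the groups. Saline libraries had 5288, 5364, 5270.4 and 5111 normalized counts and ethanol libraries had 5613, 5333.5, 4786 and 5521, in the order of sample numbers. Ethanol libraries included both the highest and the lowest value of the 8, with a coefficient of variation of 6.97% against 2.02% in saline. The fold was 1.01 (95% interval 0.913 to 1.12, limma adjusted p = 0.997).

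Of the gamma-secretase members, Ncstn and Aph1a varied little between libraries, with coefficients of variation of 6.03% and 6.76%, and Psenen and Psen2 varied more, with 11.6% and 21.1%. Ncstn, the gene of nicastrin, a subunit that takes part in substrate recognition, had 5617, 6072, 5790.3 and 6399.6 normalized counts in saline 1 to 4 and 5586, 6256, 5865 and 6561 in ethanol 1 to 4. In each group sample 4 was the highest library and sample 1 the lowest. The fold was 1.02 (95% interval 0.915 to 1.13, limma adjusted p = 0.997). Aph1a, a scaffold subunit, had 497, 477, 479 and 506 in saline and 421, 496, 426 and 470.2 in ethanol libraries, so that 3 ethanol libraries lay below every saline library and ethanol 2 lay within their range. Its fold was 0.924 (95% interval 0.774 to 1.10, limma adjusted p = 0.997), with a negative sign under all 25 settings.

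Psenen, which encodes the presenilin enhancer needed for the complex to mature, had 2571, 2418, 3265 and 2712 normalized counts in saline 1 to 4 and 2526, 2526, 3189.9 and 2881 in ethanol 1 to 4. Sample 3 was the highest library in both groups, and these are the 2 libraries whose names carry the number 163. The fold was 1.02 (95% interval 0.875 to 1.18, limma adjusted p = 0.997). Its coefficient of variation was above that of 82.4% of the 1161 genes with a like mean, whereas counting error alone would give about 1.89%.

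Psen2, which encodes presenilin 2, the catalytic subunit of gamma-secretase in late endosomes and lysosomes, varied most. Saline 1 to 4 had 373, 284, 318 and 322 normalized counts, and ethanol 1 to 4 had 227, 189, 354 and 335. Ethanol 1 and ethanol 2 were below every saline library, and ethanol 3 and ethanol 4 were above 3 of the 4. The fold was 0.830 with a 95% interval of 0.621 to 1.11 (limma unadjusted p = 0.190, adjusted p = 0.997). Within samples 1 and 2 the log2 difference was -0.65, and within samples 3 and 4 it was 0.11. This division was known from the values and rests on 2 libraries a group, so both values are a description. In samples 1 and 2 alone, 5.27% of all genes had an unadjusted p under 0.05 in limma, against 3.47% in samples 3 and 4 and 3.63% over all libraries. In neither pair of samples did any gene pass the adjusted threshold, and the difference between these 2 values was not tested.

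The 3 libraries whose names carry the number 165, namely saline 2, ethanol 1 and ethanol 2, were the 3 lowest for Psen2, at 189 to 284 against 318 to 373 in the 5 others. They were also the 3 lowest for Psenen, at 2418 to 2526 against 2571 to 3265. All 3 lay below the 5 others in 3.2% of all genes tested, and in these 2 of the 8 members, a pattern picked after the values were seen. The labels do not say what the number stands for, and the ethanol group holds 2 of the 3 libraries. All 3 belong to samples 1 and 2, where saline 1 alone carries another number, 164. The division of Psen2 into samples 1 and 2 against 3 and 4 therefore overlaps this one, and these divisions cannot be told apart. The same holds for the sides of the first principal component. With the number as a covariate the log2 difference of Psen2 between ethanol and saline was -0.14 in place of -0.27 (limma unadjusted p = 0.422).

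**Figure D2:**
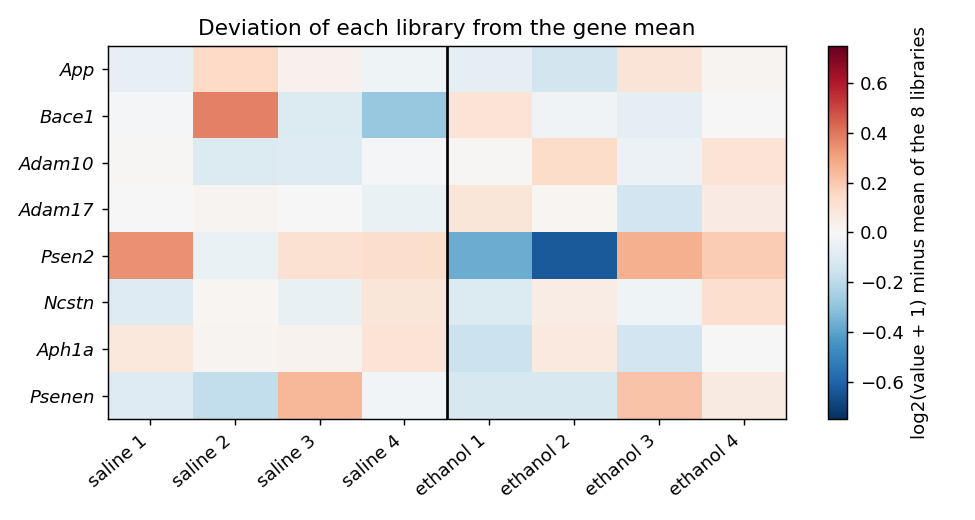
Colour gives log2(value + 1) of each member (rows) in each library (columns, saline left of the line) minus the mean of that gene over the 8 libraries. The strongest colours are in the Psen2 row, where ethanol 2 and ethanol 1 are low, and in saline 2 for Bace1, which is high.

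The tests set narrow limits for most members. The 95% interval lay wholly within 1.5-fold of equal for 7 of the 8, and for 56.3% of all genes tested, and Psen2 was the exception. It lay within 1.2-fold for 5 of the 8, namely App, Adam10, Adam17, Ncstn and Psenen, and for 13.3% of all genes. These 5 had higher levels than 89.4% (App) to 98.7% (Adam10) of the genes tested, so all genes are not a background of like level. Of genes with a like mean, 17.2% (Adam17) to 82.4% (Psenen) had a lower coefficient of variation than these members. Of the 8 members 5 had a positive and 3 a negative log2 difference, against 48.8% positive among all genes, and the median was 0.01, where that of all genes was -0.01.

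**Figure D3:**
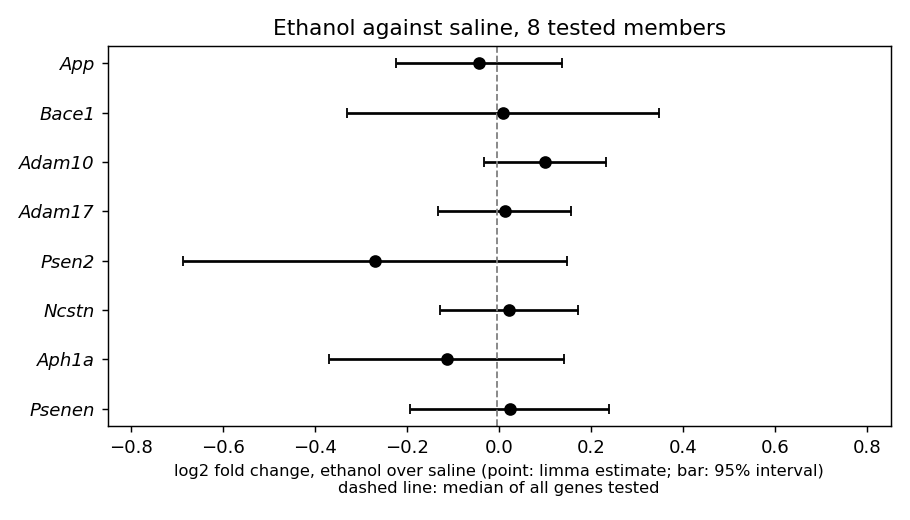
Log2 fold change of ethanol over saline (x axis) for each tested member, with the limma estimate as a point and the 95% interval as a bar; the dashed line is the median of all genes tested. Every interval crosses that line, and the interval of Psen2, from -0.69 to 0.15, is the widest.

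Levels of the genes can be set side by side only per length, here as normalized counts per kilobase of the longest GENCODE transcript, as means of the 8 libraries. Psenen had the highest level, at 3900.0 ± 453 (SD, n = 8), followed by Ncstn at 1995 ± 120.3, Adam10 at 1952 ± 116, Adam17 at 1183 ± 56.8, App at 245 ± 16.0, Aph1a at 165 ± 11.1, Psen2 at 149 ± 31.3 and Bace1 at 52.4 ± 7.22. The ranges over libraries did not overlap between neighbours in this order, except between Ncstn and Adam10, where Ncstn was above in 5 of 8 libraries, and between Aph1a and Psen2, where Aph1a was above in 5 of 8. With the union of all exons as the length, Adam10 moved ahead of Ncstn, and the ranges overlapped between Psenen and Adam10, App and Aph1a, and Psen2 and Bace1, while the rest of the order stood. Both lengths placed the alpha-secretase genes far above Bace1. Which transcripts of each gene these cells made was not tested, so levels per kilobase rest on the lengths chosen. The effect of exons shared with genes on the opposite strand was not tested either.

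**Figure D4:**
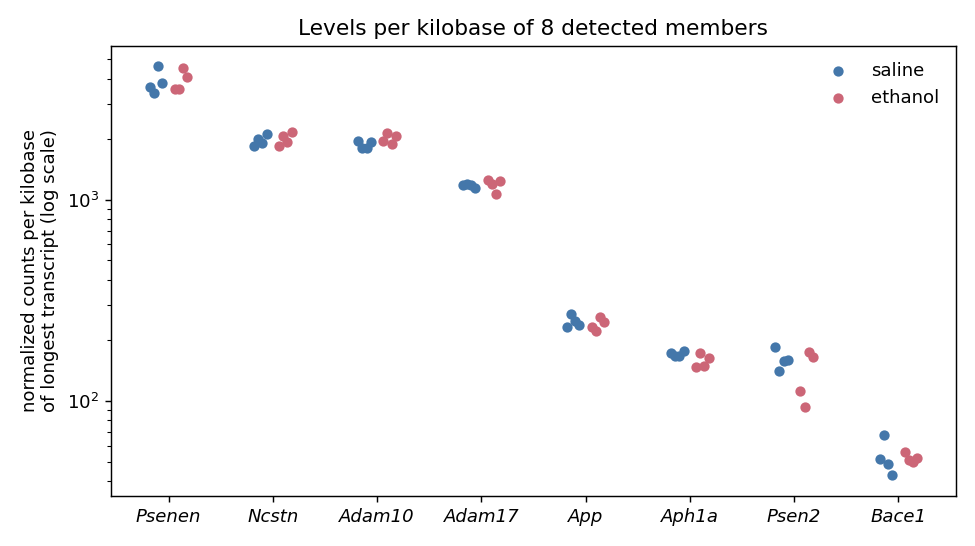
Normalized counts per kilobase of the longest transcript (y axis, log scale) of the 8 detected members, ordered by their mean, with 1 point per library. Bace1 is the lowest, at 42.7 to 67.7, and Psenen the highest, at 3416 to 4612.

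Within each library the alpha-secretase Adam10 had 26.8 to 45.3 times the level per kilobase of Bace1. The ratio was 38.1, 26.8, 37.5 and 45.3 in saline 1 to 4 and 35.1, 41.9, 38.1 and 40.1 in ethanol 1 to 4, so the ethanol values lay inside the saline range. Adam10 was 1.51 to 1.79 times Adam17, with means of 1.60 ± 0.0871 for saline and 1.70 ± 0.106 for ethanol (SD, n = 4 each). App itself was 4.00 to 5.60 times Bace1 in the different libraries.

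Aph1a made up 85.4% to 93.5% of the 3 Aph1 transcripts per kilobase, but Aph1b and Aph1c are near-identical copies. How reads that match both copies were counted is not given, so their split, their sum and the share of Aph1a are uncertain.

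The other gamma-secretase genes and modulators of the complex described here were Aph1b, Aph1c, Gsap, Tmed10, Rer1 and Ifitm3. All 6 had positive log2 differences with a median of 0.07, and 0 of 6 passed the test or had an unadjusted p under 0.05 in limma. Tmed10, a cargo receptor that binds the complex, had a fold of 1.05 (95% interval 0.958 to 1.15). Rer1, a retrieval receptor for unassembled subunits, had 1.01 (0.899 to 1.14), and Gsap, the gene of gamma-secretase activating protein, had a log2 difference of 0.07 (95% interval -0.11 to 0.26). The value for Aph1c was 0.00047 on the log2 scale, and Aph1b, with 8.69 to 94.7 normalized counts, had an interval from 0.718-fold to 4.25-fold.

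Genes of the precursor family and its adaptors were tested for 10 of 11 names, all 11 having a row, 5 with positive and 5 with negative differences and a median of 0.00, and 0 passed. Itm2b, whose product binds the precursor and limits its cleavage, had 74456 normalized counts as the saline and 75208 as the ethanol mean, a fold of 1.01 (95% interval 0.919 to 1.11). Its relative Itm2c had a fold of 0.988 (0.901 to 1.08). Aplp2, the precursor-like gene, had a fold of 1.03 (0.897 to 1.19). It was 2.36 to 3.33 times App per kilobase of the longest transcript in the different libraries, with lengths of 3634 and 8167 bases. Without a length, Aplp2 averaged 2512 and App 2000.7 normalized counts over the 8 libraries. Aplp2 was above App in each library on both scales, but the size of the ratio rests on the lengths.

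Regulators of the ADAM proteases had 3 positive and 10 negative differences among 13 tested of 16, with a median of -0.05, and 0 passed. Tspan14, a tetraspanin partner of Adam10, had a fold of 1.00 (95% interval 0.904 to 1.11), and Furin, a convertase that removes the prodomain of these proteases, had 0.952 (0.819 to 1.11). Timp2, a metalloprotease inhibitor whose action on Adam10 or Adam17 was not tested here, had 6365 to 6567 normalized counts in saline and 5918 to 6246 in ethanol libraries. These ranges did not overlap, which held for 1 of 13 genes of the list and for 2.32% of all 14428 genes tested, and its fold was 0.942 (0.863 to 1.03, limma unadjusted p = 0.164, adjusted p = 0.997). Timp3, with means of 20.6 in saline and 21.0 in ethanol libraries, had a fold of 0.964 (0.471 to 1.97), and Timp1 was at 0 in every library.

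Genes tied to the sorting of the precursor and Bace1 had 7 positive and 6 negative differences among 13, with a median of 0.03, and 0 passed. Their most abundant members were Sort1, with a fold of 1.06 (95% interval 0.942 to 1.19), the reticulon gene Rtn3 with 0.992 (0.897 to 1.10), and the retromer gene Vps35 with 1.02 (0.916 to 1.14). Of 8 other proteases that can cut the precursor, 6 were tested, with 4 positive and 2 negative differences and a median of 0.03, and 0 passed. They included Ctsb (85418 and 86411 normalized counts as the means of saline and ethanol), Lgmn, or delta-secretase (70384 and 74667), and Casp8 (3982 and 4140), with folds of 1.01, 1.06 and 1.04.

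Among 18 substrates shed or cleaved by these enzymes 16 were tested, 8 with positive and 8 with negative differences and a median of 0.00, and 0 passed. The most abundant were Csf1r with a fold of 1.01 (95% interval 0.937 to 1.09), Selplg with 1.02 (0.950 to 1.10) and Trem2 with 0.953 (0.876 to 1.04). Tnf was the 1 gene of these 16 with an unadjusted p under 0.05, which 3.63% of all genes had (limma unadjusted p = 0.0380, adjusted p = 0.997), with 3.86 to 19.4 normalized counts in saline and 14.0 to 49.1 in ethanol libraries.

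**Figure D5:**
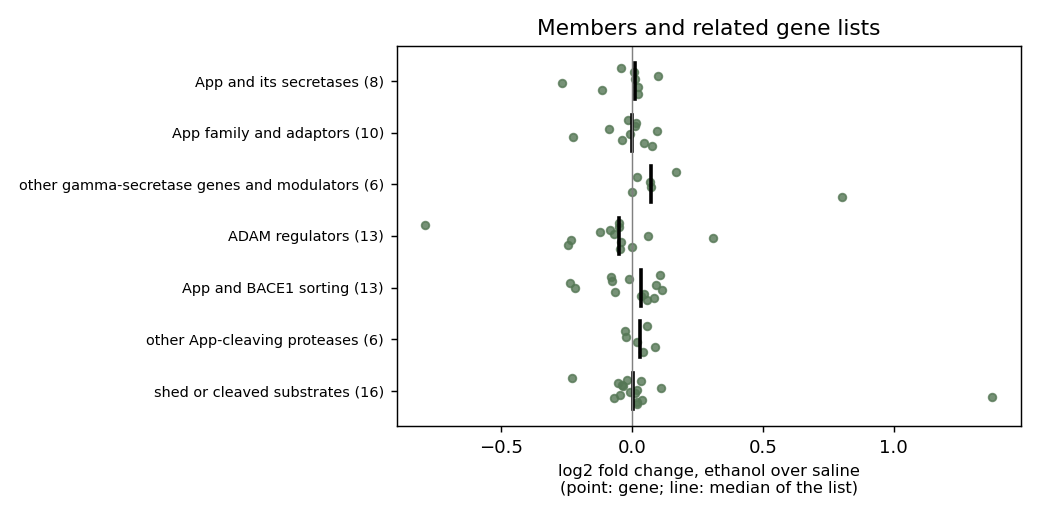
Log2 fold change of ethanol over saline (x axis) for each tested gene of the members and of 6 related lists, with a black line at the median of each list and the number of genes in brackets. The medians lie between -0.05 and 0.07, and the point farthest right is Tnf at 1.38.

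Pearson correlations of log2(value + 1) between pairs of members, each over 8 points that share library and depth, ran from -0.71 for App with Adam10 to 0.51 for App with Psen2. The genes with a pattern most like that of App, among 9222 genes with a mean of at least 100, were Prmt9 (r = 0.96), Ppil1 (0.93), D6Wsu163e (0.93), Myo18b (0.93) and Apoe (0.92), over the same 8 libraries. These values are a description, and with so many candidates the 5 highest are high by selection.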

How the data were processed

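Signal values per gene were deposited by the authors in 1 table, named as DESeq2-normalized counts, in which each library's gene counts are divided by its size factor. Per the labels' protocols, 500 pg of RNA was pre-amplified and NexteraXT libraries, which do not mark strand, were sequenced in pairs of 150 nt. Per the submitters' processing notes, STAR 2.7.9a, featureCounts 2.0.1, Salmon 1.5.2 and DESeq2 were used with GRCm39, and for their settings nothing is given in the sources used here. Dividing by the smallest value of each library gave whole reads within 1e-06 for 100% of non-zero values. Groups followed the titles, and columns the library names.

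Log2(value + 1) was fitted with limma 3.58.1 (R 4.3.3, intensity trend, intercept and group, two-sided, Benjamini-Hochberg over 14428 genes with a mean of at least 10, threshold 0.05). Folds on that scale understate changes of low genes. Alternatives were other pseudocounts, filters, scalings and weights, edgeR 4.0.16, DESeq2 1.42.0 and voom on recovered reads, covariates, and leaving out libraries. Amplified reads are not independent molecules. Lengths came from GENCODE M21 (GRCm38), by symbol. The members and lists were chosen with earlier results of these data known. All 9 members were named, with the 3 most abundant genes of each list, any gene past the threshold and the 5 genes most like App. Tnf, Timp1, Timp3, Aph1b, Aph1c and the overlapping gene Rnf214 were added after their values were seen. So were the single markers Slc1a3, Gfap, Pecam1, Cldn5 and Cd79b. 1 gene of the gamma-secretase list is not reported here.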

Additional observations from a re-analysis of the deposited data

How the results depend on the processing

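Over 25 settings beside the one reported, 0 members and 0 genes were called in each, an adjusted threshold of 0.10 included. The count of members at an unadjusted p under 0.05 was 0 except within samples 1 and 2 alone, where it was 1 of 8 (Psen2), beside 760 of 14428 genes (5.27%). Without the filter 999 of 26812 genes had an unadjusted p under 0.05, against 524 of 14428. Of 128 member values under settings that kept all libraries or 1 pair of samples, 120 kept their direction and 8 turned. Bace1 had a log2 difference of -0.0232 with array quality weights, -0.0062 in edgeR, -0.0114 in DESeq2, -0.0590 with library name numbers as a covariate and -0.144 within samples 1 and 2. Within samples 3 and 4 alone it was 0.0579 for App, -0.0138 for Adam17 and 0.107 for Psen2. The cause was not tested. Leaving out 1 library turned 11 of 64 member values. The ranges were -0.0840 to 0.137 for Bace1, -0.0147 to 0.0619 for Adam17, -0.0162 to 0.0612 for Ncstn, -0.0456 to 0.110 for Psenen, -0.0842 to -0.0023 for App, 0.07 to 0.13 for Adam10, -0.16 to -0.08 for Aph1a and -0.40 to -0.10 for Psen2, farthest from 0 without ethanol 3 and nearest without ethanol 2. The libraries share sample numbers, but same-numbered pairs had deviations correlated by only 0.01 to 0.08. Saline 1, 2, 3 and 4 correlated best with ethanol 2, 1, 4 and 3, at 0.06, 0.14, 0.09 and 0.07. With the replicate block the log2 difference of Psen2 was -0.27 (limma unadjusted p = 0.158), 645 genes had an unadjusted p under 0.05 and 0 were called. The union of exons as length moved the level per kilobase of 7 members by more than 1 SD. Among the 8 tested members, counting error was largest for Bace1, Psen2 and Aph1a, with 300.2 to 472 normalized counts each. It would alone give coefficients of variation of about 5.59%, 5.73% and 4.57%, where those over the 8 libraries were 13.8%, 21.1% and 6.76%.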
